A study of Homo sapiens with 10 samples.

Results

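The genes described here are 10 that are widely used as markers of gastric cancer stem cells: CD44, PROM1, SOX2, MSI1, ALDH1A1, EPCAM, CD24, BMI1, POU5F1 and NANOG. They were read through every probe set that the platform annotation gives exactly 1 gene symbol among these names. That left 8 of the 10 genes, measured with 29 of the 54613 probe sets that are not controls, while BMI1 and POU5F1 had 0 such probe sets and were not analysed here. CD44 was represented by 13 probe sets, CD24 by 6, SOX2 by 4 and NANOG by 2. PROM1, MSI1, ALDH1A1 and EPCAM had 1 each.

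Total RNA of cultured human gastric cancer cells was hybridised to 10 single-channel arrays. Of these, 4 arrays (replicates a to d) held side population cells, which retain little of the DNA dye Hoechst 33342 and were isolated by fluorescence-activated cell sorting. Another 4 (replicates a to d) held the non-side population, the dye-retaining cells of the same kind of sort, and 2 (replicates a and b) held unsorted cells. AGS and MKN 45 are established gastric carcinoma lines. The origin label names both lines for all 10 arrays, the source label names AGS for 8, and for side population replicates a and b it names no line. No label says that the replicates were separate cultures, so each p-value reflects only how much these particular arrays varied, which may be technical variation.

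Cancer stem cell markers are molecules whose presence has been used to enrich tumour cells that self-renew and found new tumours. Several are surface proteins by which live cells can be sorted: CD44 is the hyaluronan receptor, PROM1 (CD133) is a pentaspan membrane glycoprotein of plasma membrane protrusions, CD24 is a small glycosylphosphatidylinositol-anchored glycoprotein, and EPCAM is an epithelial adhesion molecule whose cleaved intracellular part can act in transcription. ALDH1A1 oxidises retinal to retinoic acid and underlies the dye assay for aldehyde dehydrogenase activity, MSI1 binds RNA and represses translation of targets such as NUMB, and SOX2 and NANOG are transcription factors of the pluripotency network. SOX2 is also a factor of foregut and stomach epithelium.

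Deposited values were linear intensities, already scaled to a common level, and each array had a median between 58.7 and 85.4. Differences are given as log2 of the intensity plus a constant of 6.1, with the standard error (SE) of a limma fit over all 10 arrays and p-values adjusted by Benjamini-Hochberg over all 54613 probe sets. A probe set was called at an adjusted p under 0.05. On this added-constant scale the differences of dim probe sets are understated. The ratio of 3' to 5' intensity of the actin control was 3.341 in side population replicate a and 0.987 to 1.282 on the other arrays. The 18S ribosomal RNA control read 22182.4 to 33704 on 6 of the 8 sorted arrays. It was low on side population array d (851.2), on non-side population array c (563) and on the unsorted arrays (274.6 and 828.3).

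The cells read as epithelial on every array. Of 10 gastric carcinoma epithelial markers, 9 were above the array's median on all 10 arrays, and their summed intensity was 107395.7 to 129781.8 in side population cells, 95563.6 to 147591.7 in non-side population cells and 123367.9 to 135013.5 in unsorted cells. Of 9 fibroblast and endothelial markers, 5 were above the median on no array and 1, COL1A1, on all 10, with sums of 1387.8 to 2384.2, 1451.5 to 1897.7 and 1592.5 to 2336 in the same order of groups. Of 3 measured blood cell markers, PTPRC and CD3E were above the median on no array, and CD14 on 3, side population replicate a (101.1) and non-side population replicates a (112.1) and d (76.3). ABCG2, a transporter that exports the Hoechst dye, read 76.2, 24.1, 239.2 and 157.9 in side population cells, 82.3, 16.7, 117.9 and 171.5 in non-side population cells, and 105.1 and 85.5 in unsorted cells. Its groups overlapped.

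None of the 29 marker probe sets was called between side and non-side population cells, where 0% of all 54613 probe sets were called. At an unadjusted p under 0.05 the count was 2 of 29 marker probe sets and 2870 of all probe sets. The groups' arrays did not overlap for 2 of 29, against 2.67% of all probe sets: PROM1 was higher in side population cells and the SOX2 probe set 213722_at lower. Against unsorted cells, 1 of 29 was called in side population cells, where 1.05% of all probe sets were called, and 2 of 29 in non-side population cells, where 2.18% were called. All of these calls were lower values in the sorted cells, in SOX2 (213722_at, both comparisons) and CD24 (266_s_at, non-side population). The groups did not overlap for 13 of 29 marker probe sets in side population against unsorted cells and for 9 of 29 in non-side population against unsorted cells, where 27.9% and 27.3% of all probe sets did not overlap. Both sorted populations were set against the same 2 unsorted arrays, so these 2 comparisons share their error. The median difference over the 29 probe sets was 0.04 between side and non-side population cells, -0.13 for side population and -0.13 for non-side population against unsorted cells, beside -0.05, 0.07 and 0.12 over all 54613.

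The intensity corresponding to the median of all mean log2 values was 62.4, and 17 of the 29 marker probe sets lay at or above it: 8 of the 13 for CD44, 2 of the 4 for SOX2, all 6 for CD24 and the single one for EPCAM. The other 12 included every probe set of PROM1, MSI1, ALDH1A1 and NANOG. No detection calls were used here, so for these 4 genes it cannot be told from the intensity alone whether their RNA was present. In RNA of whole samples, fewer cells carrying a transcript and less of it per cell cannot be told apart.

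**Figure D1:**
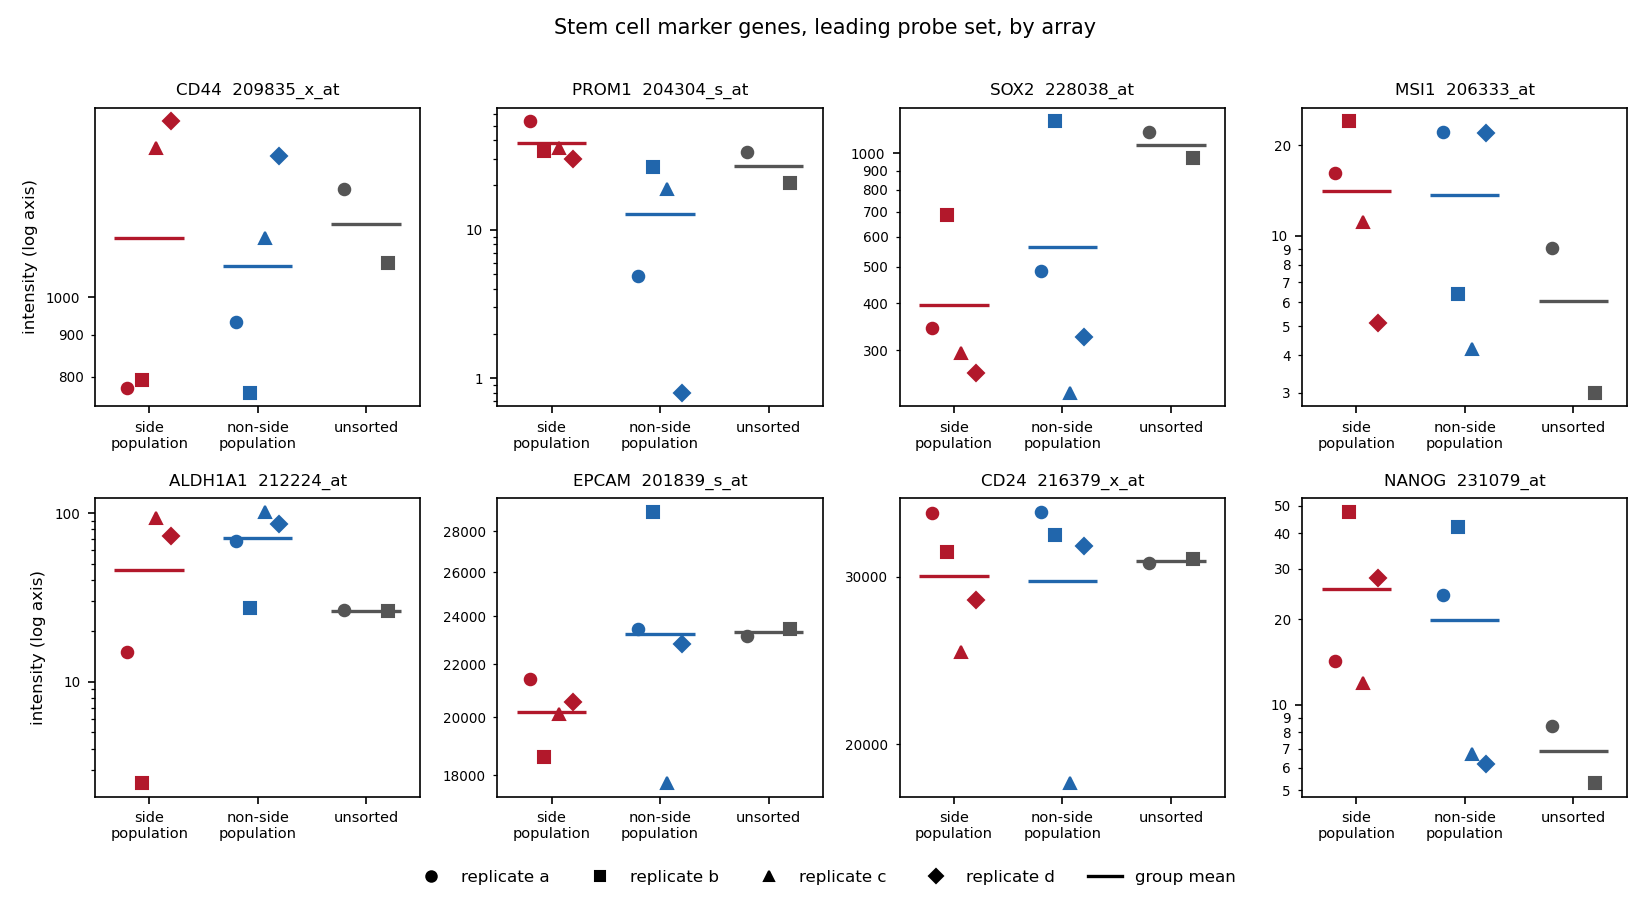
Intensity on each array for the brightest probe set of each measured gene, by mean log2 value, on log axes of their own, with side population, non-side population and unsorted cells from left to right; marker shapes are replicates and bars are group means. Only PROM1 shows side and non-side population arrays that do not overlap, at 30.1 to 54 in side population cells and 0.8 to 26.6 in non-side population cells, and SOX2 is highest in unsorted cells on average.

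SOX2 gave the only marker difference that passed between side population and unsorted cells. Its promoter is shown because SOX2 is one of the 2 genes with a call. The window runs from 250 bases before to 50 bases after the RefSeq transcript start, GRCh38.p14, chr3:181711675-181711974, plus strand, written 5′ to 3′ with matches to 3 core promoter motifs in capitals.
SOX2 promoter: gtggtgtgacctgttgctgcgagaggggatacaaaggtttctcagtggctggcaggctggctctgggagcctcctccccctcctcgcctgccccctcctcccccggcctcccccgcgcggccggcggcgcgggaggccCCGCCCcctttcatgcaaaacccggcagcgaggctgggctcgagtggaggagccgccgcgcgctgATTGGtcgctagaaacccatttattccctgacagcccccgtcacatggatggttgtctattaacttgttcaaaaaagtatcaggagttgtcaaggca
The motifs searched on both strands were the GC box GGGCGG, the CCAAT box CCAAT and the TATA box TATAAA. The window holds 1 GC box on the minus strand at -112 from the start and 1 CCAAT box on the minus strand at -47, with 0 TATA boxes, 20 CpG dinucleotides and 63.3% G and C. Of 35116 RefSeq promoter windows of 300 bases, 45% hold a GC box, 34.6% a CCAAT box and 11.5% a TATA box. These matches describe the letters of the window and say nothing of binding.

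SOX2 probe set 213722_at read 3.9, 14.8, 9.8 and 7.9 in side population cells (replicates a to d). It read 33.1, 39.0, 38.2 and 30.2 in non-side population cells and 224.5 and 195.5 in unsorted cells. The 3 groups did not overlap, with the lowest level in side population cells, the next in non-side population cells and the highest in unsorted cells. All 8 sorted arrays lay below their array's median and both unsorted arrays above it. The difference was -3.88 ± 0.48 (SE) for side population against unsorted cells (limma adjusted p = 0.00334, n = 4 and 2) and -2.39 ± 0.48 for non-side population against unsorted cells (limma adjusted p = 0.0211, n = 4 and 2). With array medians set as a floor for all values, every sorted value became its array's median, and the same differences were -1.60 and -1.46. Both passed, but the spread of the sorted groups was then only that of the array medians, so these passes add no support. Between side and non-side population cells it was -1.48 ± 0.39 and did not pass (limma adjusted p = 0.737, n = 4 each), although it was lower in side population cells for each of the 4 letters, with differences of -1.97, -1.11, -1.48 and -1.38 (the letters could not be shown to pair the samples). That difference lies wholly below the array medians. Leaving out unsorted replicate a ended both calls (limma adjusted p = 0.0962 for side population and 0.235 for non-side population), and the non-side population call was also lost without unsorted replicate b (0.135) or non-side population replicate d (0.0517).

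The other SOX2 probe sets were not called in the fit over all arrays. Probe set 228038_at read 342.6, 685.2, 294.3 and 260.9 in side population cells, 486.4, 1218.2, 231.1 and 324.3 in non-side population cells, and 1136.1 and 973.1 in unsorted cells. All 4 side population arrays were below both unsorted arrays, while non-side population replicate b exceeded them. Its differences were -0.32 ± 0.44 (side minus non-side population, limma adjusted p = 0.988), -1.50 ± 0.53 (side population minus unsorted, 0.200) and -1.18 ± 0.53 (non-side population minus unsorted, 0.288). Probe set 213721_at read 102.7, 151.4, 82.7 and 86.8 in side population cells, 115.8, 211.9, 115.6 and 40.5 in non-side population cells, and 473.4 and 354.9 in unsorted cells. Every sorted array was below both unsorted arrays, with differences of -1.93 ± 0.52 (limma adjusted p = 0.0931) for side population and -1.91 ± 0.52 (0.0726) for non-side population cells, and the side and non-side population values overlapped. It passed with array medians as a floor (limma adjusted p = 0.0365 for side population and 0.0381 for non-side population), for side population with only the compared groups (0.0449), and for non-side population with a filter at the median level (0.044) or without non-side population replicate b (0.0352). Probe set 214178_s_at, at 16.5 to 95.8 in side population cells, 38.2 to 92.2 in non-side population cells and 40.7 and 60.4 in unsorted cells, overlapped between all 3 groups. Across the 10 arrays 228038_at and 213721_at correlated at r = 0.826, as a description over arrays that share groups.

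**Figure D2:**
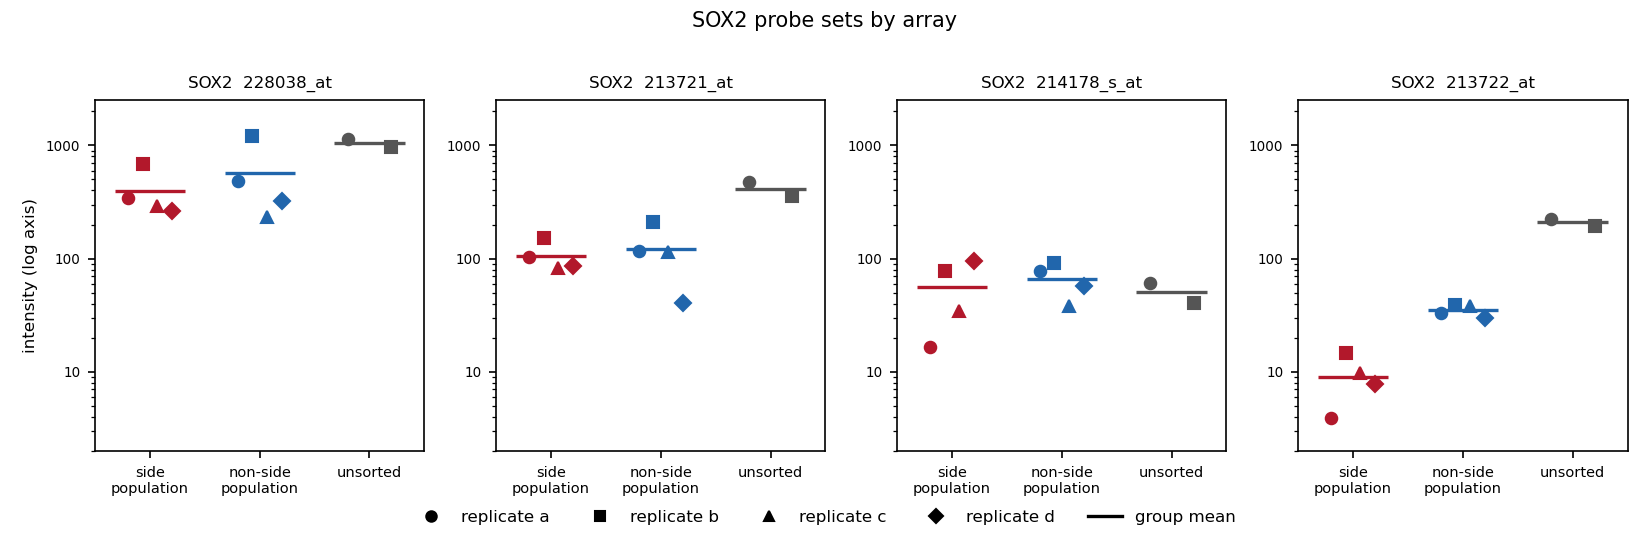
Intensity of the 4 SOX2 probe sets on each array (shared log axis), with side population, non-side population and unsorted cells from left to right and bars at group means. In 213721_at and 213722_at every sorted array lies below both unsorted arrays, and in 213722_at the 4 side population arrays (3.9 to 14.8) also lie below the 4 non-side population arrays (30.2 to 39.0).

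Other transcripts also set sorted from unsorted cells. Of 4 genes listed for telling MKN 45 from AGS cells (CDH1, CEACAM5, CEACAM6 and MET), all were above the array's median on every array, with sums of 12835.5 to 16390.1 in side population cells, 11639.6 to 16507.1 in non-side population cells and 14285.1 to 14768.4 in unsorted cells. CEACAM5, a carcinoembryonic antigen adhesion molecule, read 1603.1 to 3072.3 in side population cells, 1189.6 to 3374 in non-side population cells, and 339.6 and 477 in unsorted cells (limma adjusted p = 0.0142 for side population and 0.00573 for non-side population). CEACAM6, of the same family, lay the other way, at 8642.4 to 9662.1 in side population cells, 8443.3 to 10115.9 in non-side population cells, and 12208.3 and 12700.7 in unsorted cells, and did not pass (limma adjusted p = 0.347 and 0.306). Neither CDH1 (differences of -0.36 and -0.41) nor MET (1.28 and 0.90) passed. The part of the cell line make-up in the SOX2 and CD24 differences against unsorted cells was not tested. Among side population arrays, only c and d carry AGS as their source. With AGS-labelled arrays alone, the side population difference of SOX2 213722_at was -3.85 and still passed (limma adjusted p = 0.0384). That setting drops only side population a and b, so non-side population against unsorted cells kept all its arrays and its differences. There SOX2 213722_at still passed (limma adjusted p = 0.0228), and CD24 266_s_at, at -1.17, did not (limma adjusted p = 0.0519). Only the estimate of the spread changed, so the lost call is no test of the cell line. The 18S control, high on 6 of the 8 sorted arrays and low on both unsorted arrays, also moved with the sort. Its part was not tested. Without the 2 sorted arrays on which it was low, the SOX2 213722_at differences were -3.85 and -2.43, and both passed. That fit sets only high 18S sorted arrays against low 18S unsorted arrays, so it cannot separate the sort from 18S. The low 18S sorted arrays, single arrays of their groups, read 7.9 (side population d) and 38.2 (non-side population c) in this probe set. Both values were below the array medians, and the unsorted arrays read 224.5 and 195.5. Whether 18S had a part in these values was not tested.

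CD24 is a heavily glycosylated surface protein that binds selectins and the inhibitory receptor SIGLEC10. Its most upstream annotated promoter is shown because CD24 is the other gene with a call, with the same window and motifs, GRCh38.p14, chr6:106975578-106975877, minus strand.
CD24 promoter: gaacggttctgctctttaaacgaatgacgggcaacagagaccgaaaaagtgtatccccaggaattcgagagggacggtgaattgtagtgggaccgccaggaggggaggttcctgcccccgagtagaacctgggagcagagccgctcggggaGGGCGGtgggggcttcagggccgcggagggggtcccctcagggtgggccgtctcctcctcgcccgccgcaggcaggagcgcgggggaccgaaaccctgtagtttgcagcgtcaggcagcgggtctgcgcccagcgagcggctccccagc
This window holds 1 GC box on the plus strand of the gene at -99, 0 CCAAT boxes and 0 TATA boxes, with 25 CpG dinucleotides and 66.7% G and C.

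The 6 CD24 probe sets did not behave alike: in 4 the differences between sorted and unsorted cells were -1.37 to -0.61, 1 of them called, and in 2 they were near 0. Probe set 266_s_at read 9788.3, 10759.5, 7517.8 and 9136.9 in side population cells, 8773.6, 12029.3, 7395.7 and 7333.2 in non-side population cells, and 18491.3 and 20728.2 in unsorted cells. Every sorted array was below both unsorted arrays, and the side and non-side population ranges overlapped. Its difference was -1.17 ± 0.26 (SE) for non-side population against unsorted cells (limma adjusted p = 0.0355, n = 4 and 2) and -1.09 ± 0.26 for side population against unsorted cells (limma adjusted p = 0.0682, n = 4 and 2). Between side and non-side population cells it was 0.08 ± 0.21. The non-side population call was lost without side population replicate d (limma adjusted p = 0.052), non-side population replicate a (0.0745) or d (0.0877), or unsorted replicate a (0.266) or b (0.275), and also without a trend in the fit (0.103) or with only the compared groups (0.093). The side population difference passed without non-side population replicate b (0.037) or c (0.039), with a filter at the median level (0.0353), with quantile normalization (0.0265) and with only the compared groups (0.0398).

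Probe set 208651_x_at read 8274.2, 10547, 6186.8 and 8409.7 in side population cells, 11306.2, 11742.3, 6314.1 and 6195.2 in non-side population cells, and 15663.2 and 17451.4 in unsorted cells. Every sorted array was again below both unsorted arrays, with differences of -1.01 ± 0.32 (limma adjusted p = 0.149) and -0.96 ± 0.32 (0.138) for side and non-side population cells. Probe set 209772_s_at read 3819.7, 7930.7, 7533.4 and 8308.2 in side population cells, 16545.7, 15555.8, 4410.7 and 6515.9 in non-side population cells, and 16924.2 and 17304.9 in unsorted cells. Here non-side population replicates a and b lay close under the unsorted arrays, and replicates c and d within the range of the side population arrays. The differences against unsorted cells were -1.37 ± 0.48 (limma adjusted p = 0.193) for side population and -0.88 ± 0.48 (0.395) for non-side population cells. In 208650_s_at the values were 15225.1, 18523.3, 14676 and 17058.5 in side population cells, 23088.4, 26858, 11641.1 and 13786.8 in non-side population cells, and 25337.2 and 28908.7 in unsorted cells. The same split of the non-side population arrays, a and b above c and d, recurred there. It held in every CD24 probe set, including the called 266_s_at, and in SOX2 228038_at. The differences of 208650_s_at against unsorted cells, -0.73 ± 0.32 and -0.61 ± 0.32, did not pass (limma adjusted p = 0.318 and 0.384).

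The remaining pair of CD24 probe sets gave no such shift from unsorted cells. Probe set 216379_x_at read 35007.1, 31875.9, 25005.2 and 28407.8 in side population cells, 35149.9, 33251.4, 18208.6 and 32358.6 in non-side population cells, and 31051 and 31355.3 in unsorted cells. Unsorted values lay inside the range of both sorted groups, and non-side population replicate c was the lowest array. Differences were 0.05 ± 0.24 between side and non-side population cells, -0.06 ± 0.30 for side population and -0.12 ± 0.30 for non-side population against unsorted cells (limma adjusted p = 0.998, 0.952 and 0.899). Probe set 209771_x_at, at 24966 to 33286.5 in side population cells, 18699.8 to 33774.4 in non-side population cells and 30069.7 and 30890.3 in unsorted cells, followed it with r = 0.996 across the 10 arrays. The 15 pairs of CD24 probe sets correlated at 0.366 to 0.996 (median 0.608). The suffix _x_at marks probe sets whose probes can match other transcripts, and CD24 has processed copies in the genome, so the source of these signals is uncertain. Probe set 208651_x_at has the same suffix, yet it was lower in sorted cells (-1.01 and -0.96) and followed 266_s_at at r = 0.933.

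**Figure D3:**
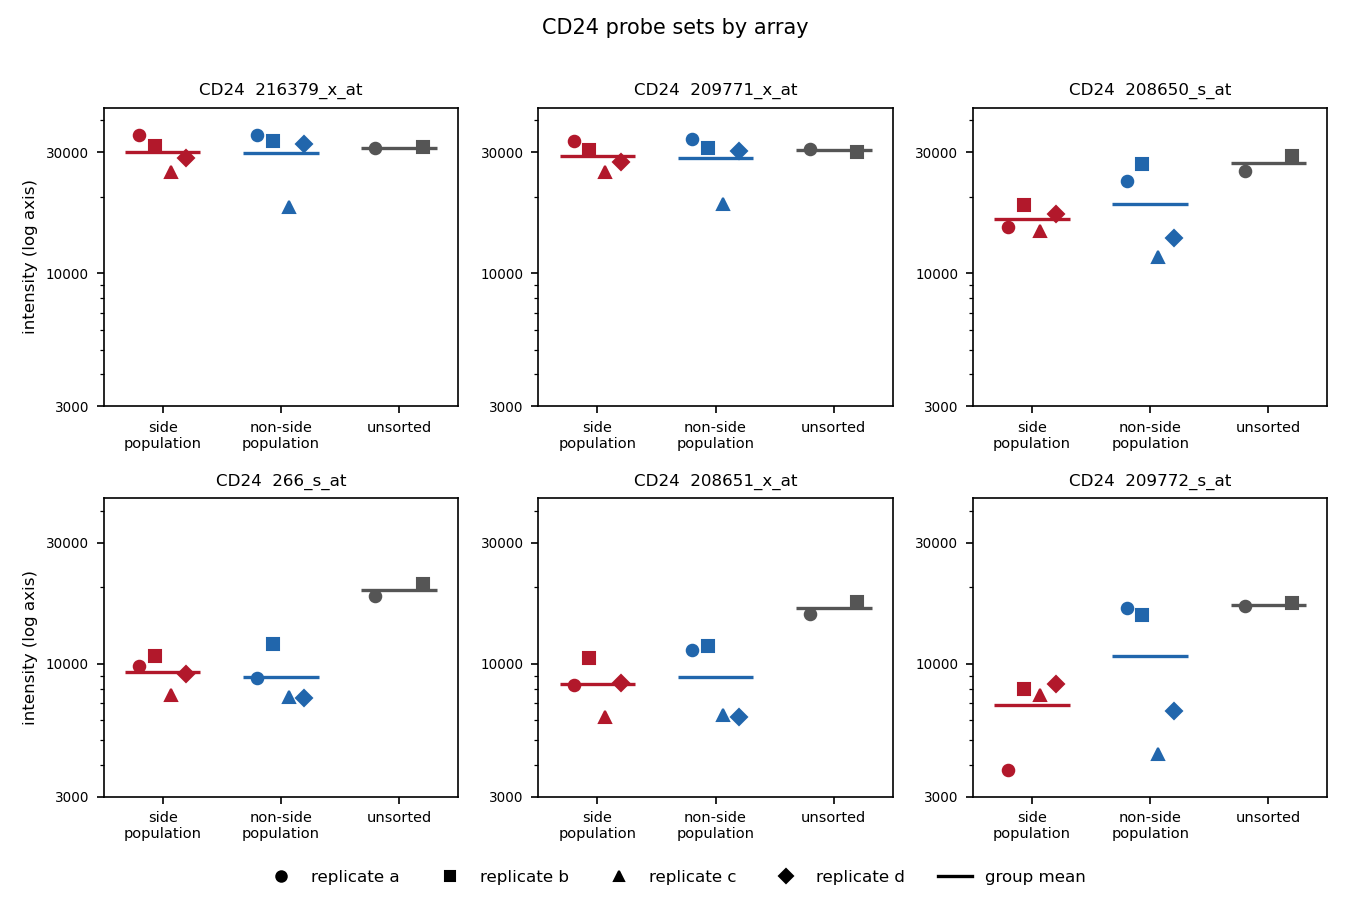
Intensity of the 6 CD24 probe sets on each array (shared log axis), with side population, non-side population and unsorted cells from left to right and bars at group means. In 266_s_at and 208651_x_at every sorted array lies below both unsorted arrays, while in 216379_x_at and 209771_x_at the unsorted arrays lie inside the range of the sorted ones.

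None of the 13 CD44 probe sets was called in any of the 3 comparisons (limma). The leading probe set, 209835_x_at, read 775.3, 792.7, 1523.2 and 1643.2 in side population cells, 932.8, 764.7, 1181.3 and 1489.8 in non-side population cells, and 1357.1 and 1101.8 in unsorted cells. In both sorted groups replicates c and d were above replicates a and b, and both unsorted arrays lay inside the range of each sorted group. The differences were 0.07 ± 0.29 (side minus non-side population, limma adjusted p = 0.997), -0.13 ± 0.36 (side population minus unsorted, 0.911) and -0.21 ± 0.36 (non-side population minus unsorted, 0.836). In side population cells the same split held in 5 more of the 8 probe sets at or above the median level: 212014_x_at, for example, read 737, 610.3, 1448.7 and 1737.5, and 210916_s_at 158.7, 151.9, 414.3 and 531.6. In non-side population cells 210916_s_at read 363, 280.8, 670.3 and 395.2, and in unsorted cells 445.6 and 395.6. In non-side population cells the split thus held in 210916_s_at too, and also in 212014_x_at (745.5, 562.1, 1044.4 and 1484.7), 1557905_s_at, 204489_s_at and 212063_at. It did not hold there in 204490_s_at or 229221_at. The source label names AGS for all non-side population arrays. Among side population arrays it names AGS for c and d and no line for a and b. The part of the cell line in this split was not tested.

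Over the 8 CD44 probe sets at or above the median level, the difference between side and non-side population cells ran from -0.57 (210916_s_at) to 0.21 (229221_at), positive in 5 and negative in 3. Against unsorted cells it ran from -0.62 to 0.76 for side population and from -0.26 to 0.57 for non-side population cells. The 2 probe sets highest in side population relative to unsorted cells were 229221_at, at 234.8, 212.4, 301.5 and 229.1 in side population cells, 219.9, 174.6, 206.5 and 237.5 in non-side population cells, and 128.3 and 153.3 in unsorted cells, and 212063_at. The difference of 229221_at was 0.76 ± 0.31 in side population cells, with every sorted array above both unsorted ones, and it was not called. Probe set 212063_at read 435.2, 413.5, 747.3 and 736.5 in side population cells, 276.5, 361.5, 1062.6 and 655.4 in non-side population cells, and 334.5 and 354.5 in unsorted cells. The most even one, 204490_s_at, read 575.3 to 721.3 in side population cells, 659.8 to 712.2 in non-side population cells, and 763.3 and 790.7 in unsorted cells.

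Probe sets of CD44 thus disagreed among themselves. Over the 28 pairs of these 8, Pearson r across the 10 arrays ran from -0.485 (204490_s_at with 229221_at) to 0.979 (209835_x_at with 212014_x_at), with a median of 0.441 and 5 negative values, against 0.366 as the lowest of any CD24 pair. Probe sets 1557905_s_at and 210916_s_at followed each other at 0.941. CD44 transcripts are spliced into many variants, and which variants each probe set reads was not analysed here. The 5 dim CD44 probe sets read between 1.1 and 76.4.

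**Figure D4:**
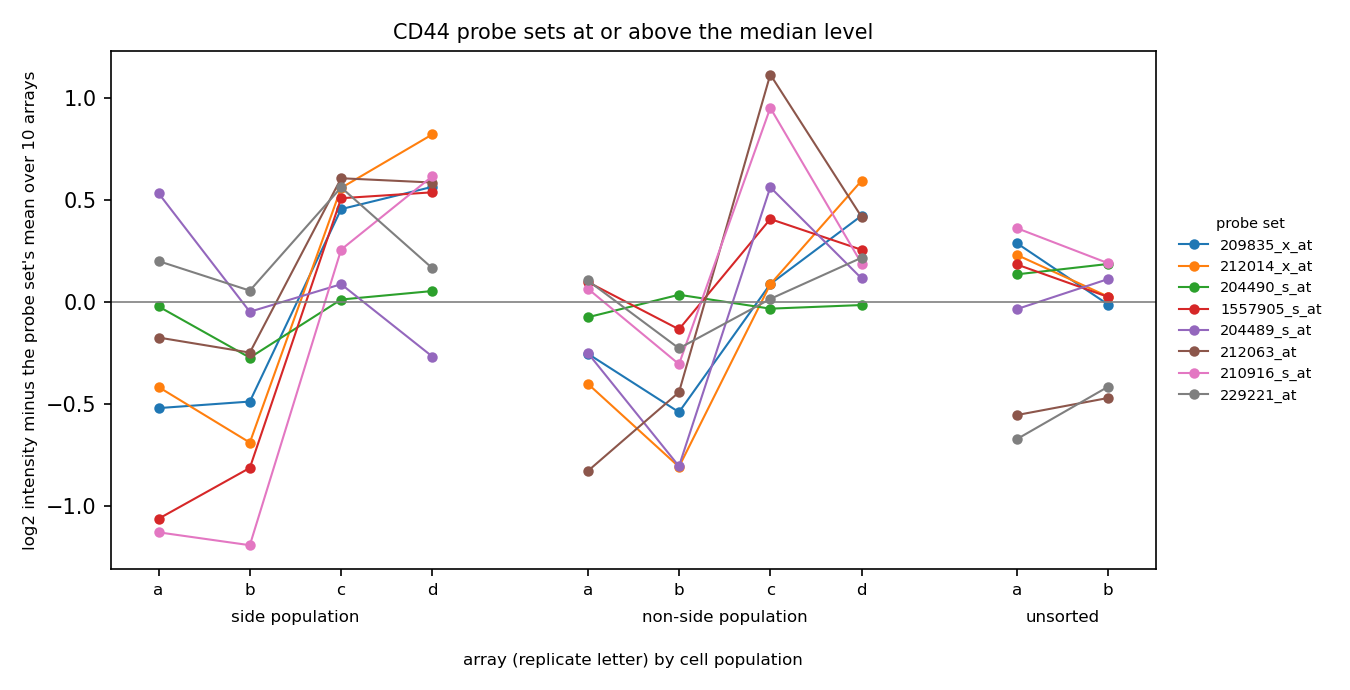
log2 intensity of the 8 CD44 probe sets at or above the median level on each array, relative to that probe set's own mean over the 10 arrays; the lines join arrays of 1 group only to keep a probe set visible and carry no order. In side population cells 209835_x_at, 212014_x_at, 1557905_s_at and 210916_s_at lie below 0 in replicates a and b and above 0 in c and d, whereas 204490_s_at stays near 0, and 212063_at and 229221_at lie below 0 in both unsorted arrays.

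PROM1 had the only leading probe set whose side and non-side population arrays did not overlap. Probe set 204304_s_at read 54, 33.7, 35.3 and 30.1 in side population cells, 4.9, 26.6, 18.9 and 0.8 in non-side population cells, and 33.5 and 20.7 in unsorted cells. All side population arrays were above all non-side population arrays, and unsorted replicate a fell in the side population range and replicate b in the non-side population range, but every value was below its array's median. The difference was 1.46 ± 0.51 (side minus non-side population) and did not pass (limma adjusted p = 0.926, n = 4 each); by letter it was 2.45, 0.28, 0.73 and 2.39. Side population minus unsorted was 0.42 ± 0.62 and non-side population minus unsorted was -1.05 ± 0.62, neither of which passed (limma adjusted p = 0.823 and 0.444).

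EPCAM was bright on every array, and no difference passed. Probe set 201839_s_at read 21409.6, 18603.6, 20094.3 and 20570.3 in side population cells, 23455.1, 29016.7, 17745.2 and 22846.5 in non-side population cells, and 23169.5 and 23454.5 in unsorted cells. The 4 side population arrays lay below both unsorted arrays, and non-side population replicates b and c were the highest and the lowest of all 10. The differences were small beside their errors, -0.19 ± 0.20 (side minus non-side population, limma adjusted p = 0.979), -0.21 ± 0.25 (side population minus unsorted, 0.767) and -0.02 ± 0.25 (non-side population minus unsorted, 0.977).

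ALDH1A1 probe set 212224_at read 15, 2.5, 93.9 and 72.7 in side population cells, 68.7, 27.2, 102.1 and 85.6 in non-side population cells, and 26.6 and 26.2 in unsorted cells. Side population replicates a and b were lower than c and d, as they were for CD44, and side population cells overlapped with both other groups, while all 4 non-side population arrays were above both unsorted arrays. The side population array was the lower one for each letter, with differences of -1.83, -1.95, -0.11 and -0.22, but the difference of -1.03 ± 0.70 did not pass (limma adjusted p = 0.965, n = 4 each). Against unsorted cells the differences were 0.09 ± 0.85 for side population and 1.12 ± 0.85 for non-side population cells (limma adjusted p = 0.978 and 0.565). MSI1 probe set 206333_at stayed dim throughout, at 16.2, 24.1, 11.1 and 5.1 in side population cells, 22.1, 6.4, 4.2 and 22 in non-side population cells, and 9.1 and 3 in unsorted cells. Its groups overlapped, and its differences were 0.09 ± 0.46, 0.69 ± 0.57 and 0.60 ± 0.57 for side minus non-side population, side population minus unsorted and non-side population minus unsorted (limma adjusted p = 0.999, 0.636 and 0.657).

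NANOG was dim in both of its probe sets, and the gene has near-identical retrogene copies whose RNA the array may read too. Probe set 231079_at read 14.2, 47.7, 11.9 and 27.8 in side population cells, 24.3, 42.2, 6.7 and 6.2 in non-side population cells, and 8.4 and 5.3 in unsorted cells. All side population arrays were above both unsorted arrays, with a difference of 1.15 ± 0.64 that did not pass (limma adjusted p = 0.441, n = 4 and 2). Side minus non-side population was 0.38 ± 0.53 and non-side population minus unsorted 0.77 ± 0.64 (limma adjusted p = 0.989 and 0.606). Probe set 220184_at read 3.2, 1.4, 23.4 and 1.9 in side population cells, 2.7, 4.5, 49.7 and 3.5 in non-side population cells, and 9.6 and 4.9 in unsorted cells. Replicate c was high in both sorted groups, and the pattern of the other NANOG probe set was not repeated there.

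**Figure D5:**
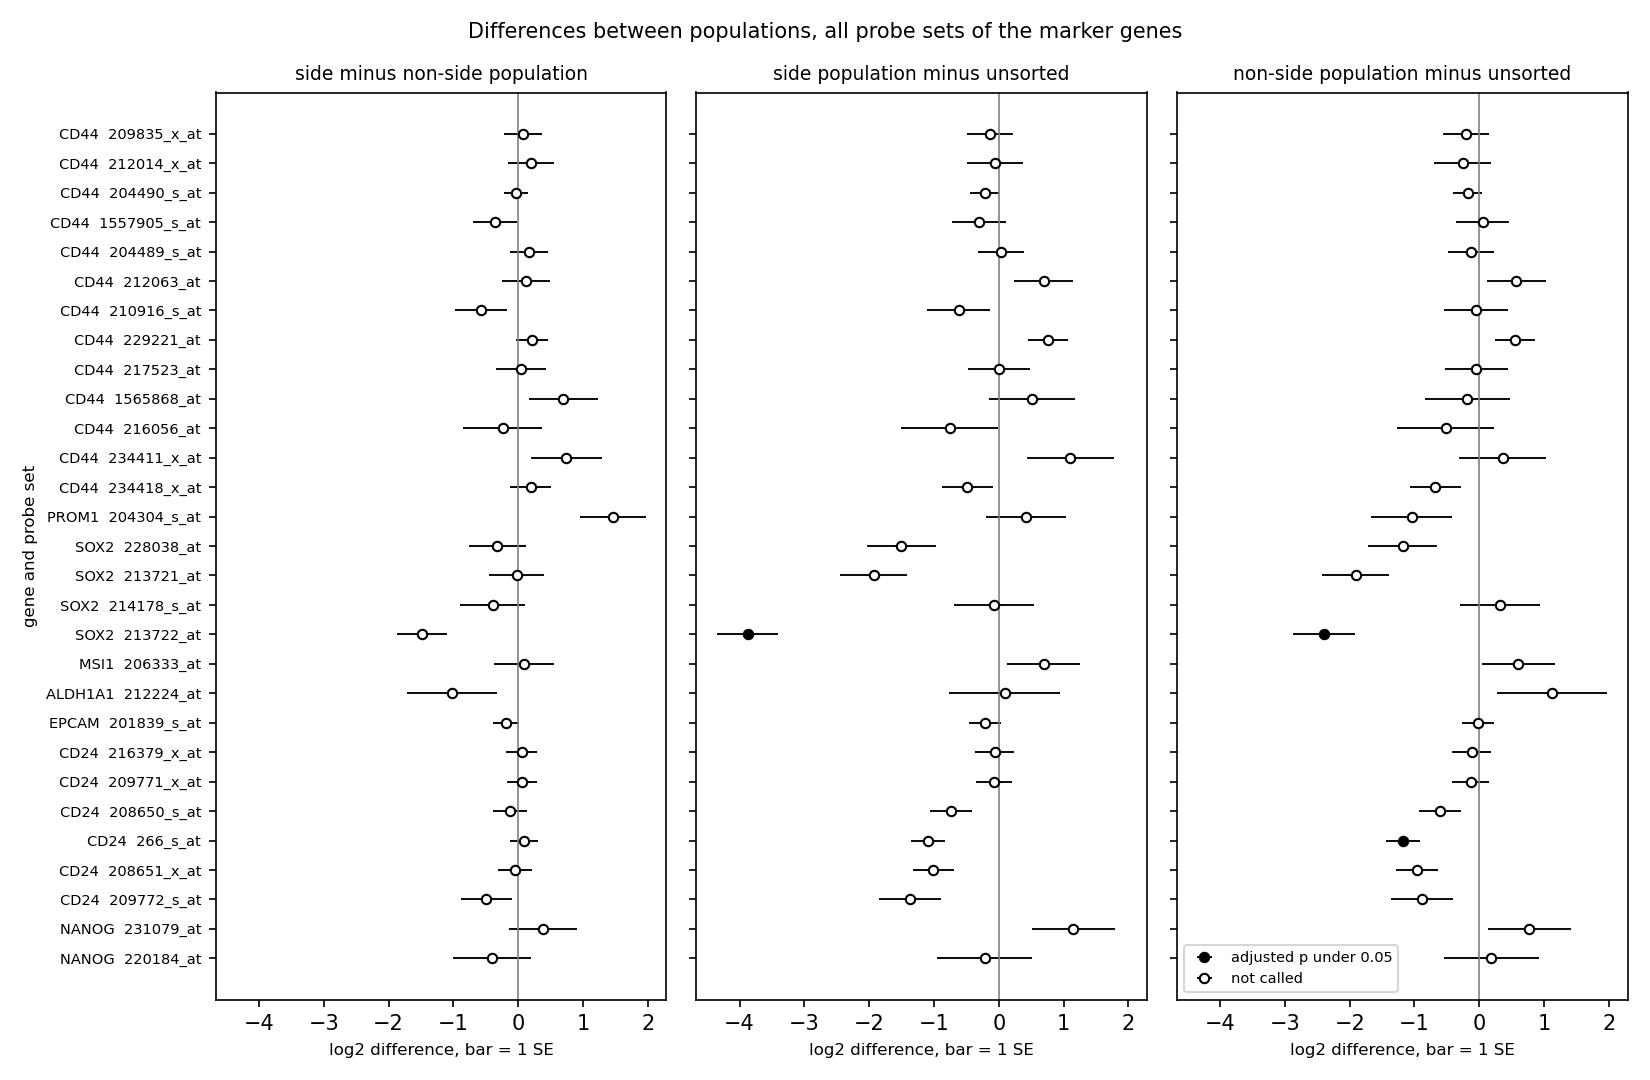
Difference in log2 intensity with 1 SE for all 29 probe sets of the 8 genes, in side minus non-side population (left), side population minus unsorted (middle) and non-side population minus unsorted (right); filled points have an adjusted p under 0.05. No point is filled on the left, SOX2 213722_at at -3.88 is the only one in the middle, and SOX2 213722_at at -2.39 and CD24 266_s_at at -1.17 are the only ones on the right.

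Genes that work with these markers were read from 7 lists, with 1 probe set a gene, chosen by mean log2 value. No member of any list was called between side and non-side population cells. Over all 19775 genes taken this way, 0% were called in that comparison, 0.834% in side population against unsorted cells (137 higher, 28 lower) and 1.75% in non-side population against unsorted cells (255 higher, 91 lower). The medians of the difference over all genes were -0.001, 0.056 and 0.065 in the order side minus non-side population, side population minus unsorted and non-side population minus unsorted.

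The list on EPCAM cleavage and partners holds proteases, claudin 7 and the beta-catenin route by which the freed intracellular part of EPCAM acts. Of its 13 measured genes (of 14), 1 was called higher than in unsorted cells in each sorted population, and none lower; its median differences were 0.129 (side minus non-side population), -0.058 (side population minus unsorted) and -0.068 (non-side population minus unsorted). The called gene was CTNNB1, which encodes beta-catenin, at 6768.8 to 13141.3 in side population cells, 8979.5 to 10265.4 in non-side population cells and 3500 and 4918.4 in unsorted cells. Every sorted array was above both unsorted arrays, with differences of 1.31 ± 0.28 (limma adjusted p = 0.0416) for side population and 1.18 ± 0.28 (0.0437) for non-side population cells, and 0.13 ± 0.23 between the sorted groups. ADAM17, a sheddase that cuts EPCAM, read 1715 to 2084.2 in side population cells, 1341.5 to 2017.5 in non-side population cells and 974.6 and 1063.4 in unsorted cells, and its differences of 0.85 ± 0.23 and 0.69 ± 0.23 did not pass (limma adjusted p = 0.0995 and 0.142). ST14, the membrane protease matriptase, had the smallest unadjusted p of the list between side and non-side population cells, at 0.77 ± 0.26 (limma adjusted p = 0.916).

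The list on Musashi, NUMB and translation had all 7 of its genes measured, with 0 called for side population against unsorted cells and 1 called lower for non-side population against unsorted cells. Its medians were 0.083, 0.08 and -0.182 for the comparisons in the same order. The called gene, HES1, is a Notch target and repressor, and it read 1241.6 to 2918.1 in side population cells, 1499.4 to 2250.4 in non-side population cells and 3954.7 and 6649.2 in unsorted cells. Every sorted array was below both unsorted arrays, with differences of -1.47 ± 0.33 (limma adjusted p = 0.0346) in non-side population and -1.38 ± 0.33 (0.0624) in side population cells. NUMB, an antagonist of Notch and the best known MSI1 target, read 45.9 to 60.2 in side population cells, 61 to 93.5 in non-side population cells and 71.7 and 96.5 in unsorted cells, with no difference that passed. Its relative NUMBL read 1089.9 to 2428.8 in side population cells, 1387.1 to 2390.4 in non-side population cells and 598.4 and 729.8 in unsorted cells and was above both unsorted arrays on every sorted array, but did not pass in side or non-side population cells (limma adjusted p = 0.105 and 0.0525).

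Polycomb repressive complexes silence differentiation genes through histone marks, and BMI1 belongs to one of them. Of 23 measured genes (of 26), 0 were called for side population against unsorted cells and 1 was called higher for non-side population against unsorted cells, with medians of -0.021, 0.092 and 0.061. The called gene was PHC3, a polyhomeotic subunit, at 819.2 to 1350.7 in side population cells, 1240.2 to 1795.3 in non-side population cells and 397.1 and 495.9 in unsorted cells. The 3 groups kept an order, with unsorted cells lowest and non-side population cells highest on average, and the sorted groups overlapped. The differences were 1.75 ± 0.27 for non-side population (limma adjusted p = 0.00647) and 1.17 ± 0.27 for side population against unsorted cells (0.0554), and -0.58 ± 0.22 between the sorted groups (0.926). CBX7, a subunit that reads the repressive mark, read 60.9 to 197.5 in side population cells, 90.6 to 251.7 in non-side population cells and 20.7 and 71.9 in unsorted cells, and its differences against unsorted cells of 1.58 ± 0.58 and 1.77 ± 0.58 did not pass (limma adjusted p = 0.218 and 0.137).

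Other surface and niche markers of cancer stem cells gave 15 measured genes of 16, with 0 called in side population cells and 1 called higher in non-side population cells, both against unsorted cells, and medians of 0.108, 0.225 and 0.211. OLFM4, a secreted glycoprotein of intestinal stem cells, was the called one, at 7.1 to 25.6 in side population cells, 22.6 to 49.8 in non-side population cells and 1.6 and 3.3 in unsorted cells. All of these values were below the array medians. Its difference was 2.35 ± 0.51 for non-side population (limma adjusted p = 0.0306) and 1.12 ± 0.51 for side population against unsorted cells (0.331). ASCL2, a transcription factor of the same stem cells, read 32.2 to 80.2 in side population cells, 11.1 to 82.8 in non-side population cells and 3.4 and 6.2 in unsorted cells and did not pass in either comparison (limma adjusted p = 0.0904 and 0.104).

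The remaining 3 lists held no call in any comparison. All 14 aldehyde dehydrogenase genes were measured, with medians of 0.159, 0.035 and 0.013. ALDH4A1, of proline breakdown in mitochondria, read 222.8 to 472.1 in side population cells, 65 to 467.2 in non-side population cells and 437.8 and 469.3 in unsorted cells, and ALDH5A1, which oxidises succinic semialdehyde, read 951.4 to 1393.3 in side population cells, 591.1 to 1608.6 in non-side population cells and 627.8 and 676.1 in unsorted cells. Of the pluripotency partners 23 of 25 were measured, with medians of -0.05, 0.045 and 0.09. SOX4, of the same SOX family as SOX2, read 4362.9 to 8075.8 in side population cells, 4511.1 to 8634.6 in non-side population cells and 3267.8 and 3361 in unsorted cells, above both unsorted arrays on every sorted array (differences 0.87 ± 0.32 and 0.92 ± 0.32, limma adjusted p = 0.217 and 0.159). KLF5, an epithelial and stem cell factor, read 2353.6 to 3204.2 in side population cells, 1988.9 to 3542 in non-side population cells and 3855.2 and 5055.5 in unsorted cells, below both unsorted arrays on every sorted array (-0.68 ± 0.27 and -0.64 ± 0.27, limma adjusted p = 0.256 and 0.255). Of CD44 partners and splicing factors 21 of 24 were measured, with medians of 0.17, 0.244 and 0.055. SLC7A11, the cystine transporter that CD44 variants stabilise, read 494.6 to 4696.1 in side population cells, 289 to 3817.6 in non-side population cells and 341.8 and 426.2 in unsorted cells, with differences of 2.23 ± 0.90 and 2.12 ± 0.90 against unsorted cells (limma adjusted p = 0.266 and 0.256). MSN, the linker moesin that ties CD44 to actin, read 3162.1 to 7622.5 in side population cells, 2533.4 to 4768.1 in non-side population cells and 6593.4 and 6934 in unsorted cells, with a difference of 0.61 ± 0.27 between side and non-side population cells (limma adjusted p = 0.943).

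The genes whose pattern over the 10 arrays was most like each bright marker were found among 12034 other genes at or above the median level, by Pearson r of log2 intensity. For CD44 they were REEP6 (r = 0.966), NDUFA1 (0.959) and RYR2 (0.953). REEP6 read 198.9, 167.2, 620.5 and 681.2 in side population cells, 261.3, 224.7, 493.6 and 615 in non-side population cells, and 409.1 and 371.4 in unsorted cells, which repeats the CD44 split of c and d above a and b. For SOX2 they were CHORDC1 (0.963), TIFA (0.960) and NCK1 (0.946), for EPCAM PRMT1 (0.936), TFG (0.923) and RNASEH2A (0.909), and for CD24 RPL35 (0.967), RPS7 (0.958) and DDX49 (0.955). RPL35, a ribosomal protein gene, read 17629.8 on non-side population array c and 30550.1 to 32937.2 in the other non-side population arrays, the same low array as in CD24 216379_x_at. With so many genes compared over 10 arrays, these are descriptions with no p-value.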

How the data were processed

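Total RNA of sorted and unsorted gastric cancer cells was measured on single-channel arrays. The authors deposited linear intensity values, 0.1 to 74993.2, for 54675 probe sets. GCOS 1.4 appears in the submitters' processing notes, with no role or settings, and no source used here names the algorithm. The trimmed mean of the deposited intensity values, leaving out 2% at each end, was 499.906 to 499.935 on every array, so no further scaling was applied. The 10th percentile of all values, 6.1, was added before log2.

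Groups were taken from the sample labels, and 0 pairs of arrays held identical values. After 62 control probe sets were left out, 54613 probe sets were fitted with limma 3.58.1 in R 4.3.3 (3 groups and 10 arrays in 1 fit, eBayes with a trend, no covariate). Adjustment was by Benjamini-Hochberg over all of them, with calls at an adjusted p under 0.05. The script was tested on simulated data. The number of arrays, above all the 2 unsorted ones, limits the precision. Of the probe sets on the array, 41097 had 1 gene symbol in the platform annotation, 1801 several and 11777 none, and 8 of 8 measured marker genes matched the RefSeq gene table. Promoter sequences are from RefSeq, GRCh38.p14.

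All probe sets of the marker genes with 1 symbol are accounted for. The text names a gene's probe set of highest mean log2 value first, and from each list up to 3 genes of smallest unadjusted p in side population against non-side population and up to 3 against unsorted cells, of which it gives some. The members and lists were chosen with earlier results of these data known. Same-lettered side and non-side population arrays deviated together at r = 0.127 (a), 0.413 (b), -0.027 (c) and 0.239 (d), so the letters were not taken to pair the samples. Alternatives were another constant, values raised to a floor, a filter on dim probe sets, 1 probe set a gene, quantile normalization, no trend, only the compared groups, only arrays labelled AGS, a replicate block, arrays split by letter, sorted arrays of low 18S left out, and each array left out.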

Additional observations from a re-analysis of the deposited data

Results flagged for a closer look

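In groups of 4 arrays, 4 values of 58 groups stood apart, by a gap to the nearest array that exceeded Dixon's 95% critical share of the group's range on the log2 scale. Chance alone gives about 1 in 20 groups. CD24 216379_x_at read 18208.6 in non-side population replicate c, where the other 3 read 32358.6 to 35149.9. CD24 209772_s_at read 3819.7 in side population replicate a, where the other 3 read 7533.4 to 8308.2. The dim NANOG probe set 220184_at read 23.4 in side population replicate c, where the others read 1.4 to 3.2, and 49.7 in non-side population replicate c, where the others read 2.7 to 4.5.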

How the results depend on the processing

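No marker probe set was called between side and non-side population cells under any alternative run, including each array left out. The counts over all probe sets in the main fit were 0 (side against non-side population), 571 (side population against unsorted) and 1191 (non-side population against unsorted). Side population against unsorted gave 379 with the 25th percentile added, 904 with a filter at the median level and 38 with arrays labelled AGS only. It gave 347 with values raised to 1 common median and 1080 without the sorted arrays of low 18S, both alternatives chosen after seeing the data. For side population against unsorted and non-side population against unsorted, the counts were 232 and 348 with 1 probe set a gene after the filter, and 246 and 760 without a trend. Non-side population against unsorted gave 742 with only the compared groups and 717 with the common median, which gave 1 for side against non-side population. In the split by letter, side against non-side population gave 102 calls for letters a and b, none of them a marker, and 0 for c and d. The contrast for a and b sets side population arrays whose source label names no line against non-side population arrays labelled AGS. Side population replicate a also had the actin ratio of 3.341. Whether the source or this ratio had a part in the 102 calls was not tested. Leaving out each array gave 0 to 1, 4 to 785 and 34 to 1483 calls for the 3 comparisons in that order. The lowest were without unsorted replicate a (4 and 34) and then b (52 and 150).

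Marker probe sets called, 1 and 2 against unsorted cells, became 2 for side population with values raised to the array median and with quantile normalization, and 3 with only the compared groups. For non-side population the count was 1 without a trend, with only the compared groups and with AGS arrays only. The AGS setting left the arrays of that comparison unchanged. Both counts were 0 with 1 probe set a gene, since SOX2 213722_at and CD24 266_s_at are then not tested. Leaving out each array gave 0 to 0, 0 to 2 and 0 to 3 markers. The titles give side and non-side population arrays the same letters without saying what a letter marks, and whether they pair the samples was not settled: 3 of 4 same-letter correlations were over 0.1, c was -0.027, and side population replicate d correlated better with non-side population replicate c (0.418) than d (0.239). With the replicate block, 0 probe sets were called between side and non-side population cells, and SOX2 213722_at had a limma adjusted p of 0.957.

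None of the differences that changed sign had passed. Probe sets other than the leading ones changed sign too, some by more. For side minus non-side population with letters a and b, then c and d, CD24 209772_s_at gave -1.54 and 0.56. In the same order CD24 208650_s_at gave -0.57 and 0.32, CD44 1557905_s_at -0.91 and 0.19, and CD44 204489_s_at 0.76 and -0.42. The changes that follow are those of leading probe sets. For side minus non-side population, CD44 209835_x_at was -0.061 without the low 18S arrays and -0.11 with letters a and b, CD24 216379_x_at -0.15, -0.11 (AGS only) and -0.033 (a and b), MSI1 -0.37 (AGS only) and -0.29 (c and d), ALDH1A1 0.33 (AGS only), NANOG 231079_at -0.21 (a and b), SOX2 228038_at 0.017 and EPCAM 0.014 (c and d). For side population minus unsorted, ALDH1A1 was -0.13 with the constant 1, -0.31 without the low 18S arrays and -0.023 with quantile normalization, and CD44 209835_x_at was 0.37 with AGS only. For non-side population minus unsorted, EPCAM was 0.10 and CD24 216379_x_at 0.11 without the low 18S arrays. Leaving out each array gave -0.11 to 0.25 for CD44, -0.17 to 0.15 for CD24 216379_x_at, -0.18 to 0.34 for MSI1 and -0.65 to 0.14 for SOX2 228038_at (side minus non-side population). It gave -0.32 to 0.039 for CD44, -0.14 to 0.02 for CD24 216379_x_at and -0.42 to 0.76 for ALDH1A1 (side population minus unsorted), and -0.14 to 0.10 for EPCAM and -0.21 to 0.11 for CD24 216379_x_at (non-side population minus unsorted). The cause was not tested.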
